A study of Mus musculus with 8 samples.

Results

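The genes described are 47 components of TGF-beta and BMP signaling, taken from a list of gene symbols and looked up among the genes of a bulk RNA-seq count table. The list holds ligands, activin subunits, latent TGF-beta binding proteins, secreted antagonists, receptors, Smad proteins and target genes, in 11 groups by role. All 47 were found among the 52636 genes, and the 45 with counts in all 8 libraries were tested.

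The RNA came from mesenchymal stem and progenitor cells (MSPCs) of mouse bone marrow, the stromal cells that supply niche factors to hematopoietic cells, from 4 CTR and 4 littermate cKO mice with 1 library per mouse. CTR mice were Flk2-cre+ Cxcr4 fl/+ and cKO mice were Flk2-cre+ Cxcr4 fl/fl, so that all 8 mice carried the Cre and at least 1 floxed allele of the chemokine receptor Cxcr4. The comparison asks whether MSPC transcripts differ when hematopoietic cells, not the MSPCs themselves, lose CXCR4. Flk2-driven Cre acts in multipotent progenitors and the hematopoietic cells that descend from them. The labels give an age of 6 weeks for every mouse, whereas the methods state an older range for all mice of the study. MSPCs were sorted as CD45- Ter119- CD31- CD144- PDGFRα+ cells positive for GFP expressed from the Kitl (stem cell factor) locus, an allele that all 8 mice shared.

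TGF-beta and BMP ligands are secreted dimers that bring type I and type II receptor kinases together. The receptors phosphorylate Smad2 and Smad3, mainly for TGF-beta and activin, or Smad1, Smad5 and Smad9, mainly for BMPs, and these enter the nucleus with Smad4. Latent binding proteins such as that of Ltbp1 hold TGF-beta in the matrix, and antagonists such as gremlin and noggin bind ligands outside the cell. Smad6 and Smad7 are feedback inhibitors. In bone marrow these pathways are known for roles in osteoblast differentiation and in hematopoietic stem cell quiescence.

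Total counts per library lay between 31047344 and 38216877. The 8 MSPC markers checked (among them Cxcl12, Lepr, Pdgfra and Kitl) all had counts in every library and summed to 51276 to 64235 CPM (counts scaled to a common library size, with TMM factors between libraries). Most of this sum came from Cxcl12 (mean 44815 CPM). Endothelial markers summed to 3.62 to 11.9 CPM, with Tek at 0 in every library and Emcn highest at a mean of 3.16 CPM. Hematopoietic markers summed to 12.3 to 35.1 CPM, with Cd3e at 0 and Lyz2 highest at a mean of 11.0 CPM. Osteoblast markers summed to 8375 to 14408 CPM, mostly from Ibsp (mean 10691 CPM). Chondrocyte markers summed to 55.3 to 117 CPM, and smooth muscle and pericyte markers to 11.6 to 65.1 CPM. Erythroid markers summed to 19.5 to 46.7 CPM in CTR and 40.0 to 60.0 CPM in cKO, and fibroblast markers reached at most 0.932 CPM. Sample titles carry a number of unstated meaning, 67 to 86 in CTR1, cKO1, CTR3 and cKO3 and 26 to 32 in the other libraries, so that each range holds both genotypes.

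Promoter sequences of 3 genes are shown, chosen with their values known. Smad6 and Tgfb1 have 2 of the 3 smallest edgeR p-values between genotypes, and Id4 is the BMP target whose cKO libraries lay closest together. They run 5′ to 3′ on the gene's own strand, from RefSeq on GRCm38.p6, and end at the annotated start or 8 bases past it for Smad6. Capitals mark GTCTAGAC, the Smad box palindrome, in Smad6, a single Smad box (AGAC, which is GTCT on the other strand) in Tgfb1, and GGCGCC, a GC-rich word of BMP-responsive elements, in Id4. The windows lie at chr9:64022052-64022309 on the minus strand for Smad6, at chr7:25686752-25687001 on the plus strand for Tgfb1 and at chr13:48260866-48261115 on the plus strand for Id4.
Smad6: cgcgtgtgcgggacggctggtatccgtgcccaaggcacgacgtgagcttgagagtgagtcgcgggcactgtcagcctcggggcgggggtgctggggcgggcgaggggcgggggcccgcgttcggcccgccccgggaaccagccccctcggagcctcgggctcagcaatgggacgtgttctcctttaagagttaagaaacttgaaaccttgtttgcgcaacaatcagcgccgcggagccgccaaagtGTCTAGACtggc
Tgfb1: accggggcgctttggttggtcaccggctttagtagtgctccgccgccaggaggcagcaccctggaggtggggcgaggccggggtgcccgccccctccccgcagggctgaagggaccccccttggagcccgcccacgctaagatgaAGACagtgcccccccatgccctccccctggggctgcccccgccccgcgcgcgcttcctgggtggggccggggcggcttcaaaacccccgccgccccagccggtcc
Id4: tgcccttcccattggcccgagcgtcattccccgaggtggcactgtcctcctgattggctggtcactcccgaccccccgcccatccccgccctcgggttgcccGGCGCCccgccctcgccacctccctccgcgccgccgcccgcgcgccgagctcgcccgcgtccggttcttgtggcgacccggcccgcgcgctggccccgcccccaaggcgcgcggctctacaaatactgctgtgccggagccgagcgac

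Of the 47 genes, 33 had a window of 250 bases before to 50 bases after a start in the RefSeq table, 41 windows in all. The genes without a window, among them Smad7 and Id1, were not searched. The palindrome GTCTAGAC, which reads the same on both strands, was in 70 of all 32851 windows (0.213%), and of the 33 genes only Smad6 had it. GGCGCC, also the same on both strands, was in 11.9% of all windows and in 14 of the 41 windows of these genes (34.1%), those of 12 genes that include Id2, Id4, Bmpr1a and Grem1. GTCT or AGAC, which the palindrome contains, was in 88% of all windows and 87.8% of these, so that its presence sets no gene apart. These matches describe letters in the windows, and binding was not measured here.

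Levels of different genes were compared as CPM per kilobase of exon, the mean of 8 libraries with its SD. The antagonist Fstl1 (follistatin-like 1) had the highest level at 651 ± 63.7 CPM per kilobase, followed by the target gene Id3 (360.1 ± 87.1), the BMP antagonist Chrdl1 (333 ± 41.8) and the ligand Bmp6 (331 ± 32.5). At the other end, Bmp3, Inhba, Smad9, Ltbp4, Chrd and Inhbb were each under 1 CPM per kilobase on average. Bmp7, a BMP ligand, and Bmpr1b, a type I BMP receptor, had 0 counts in every library, and 3 counts in the smallest library correspond to 0.0966 CPM.

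**Figure D1:**
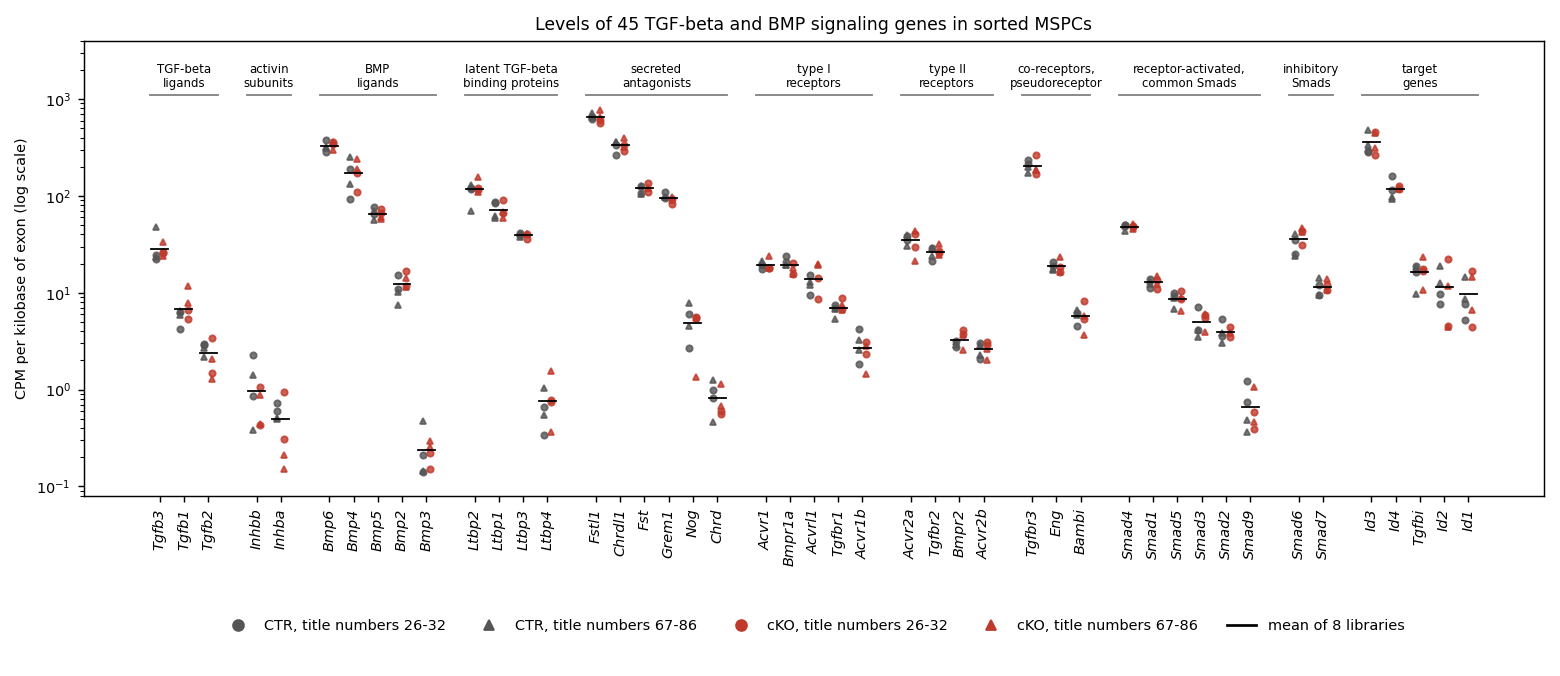
CPM per kilobase of exon (log axis) of the 45 tested genes, grouped by role and ordered by mean within each role; points are libraries (gray CTR, red cKO; circle title numbers 26-32, triangle 67-86) and lines are means of 8 libraries. Fstl1 is highest at 651 and Bmp3 lowest at 0.237, and CTR and cKO points overlap for every gene.

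Among the TGF-beta ligands, Tgfb3 was highest in 8 of 8 libraries, with a mean of 28.4 CPM per kilobase against 6.83 for Tgfb1 and 2.38 for Tgfb2. The order Tgfb3, Tgfb1, Tgfb2 held in every library without overlap of their ranges. Tgfb3 was at 78.6, 75.5, 162 and 82.3 CPM in CTR1 to CTR4 and at 80.2, 87.7, 113 and 88.5 CPM in cKO1 to cKO4. CTR3 had the highest value, cKO3 came next, and the other 6 libraries lay together.

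BMP ligands were led by Bmp6, at a level 1.92 times that of Bmp4, which was 2.63 times that of Bmp5. Bmp6 was at 1252, 1107, 1214 and 1458 CPM in CTR and at 1160.5, 1400, 1399 and 1342 CPM in cKO, so that the groups overlapped and no library stood apart. Bmp5 is given with a limit, because 46.7% of its exon bases are shared with the antisense gene Gm26903, which had 3614 to 5048 counts itself. Whether reads were counted by strand is not given in the sources used here, and 16 of the 47 genes share some exon bases with another gene. Bmp2, an osteogenic ligand, followed at 12.2 CPM per kilobase, and Bmp3 was 51.8 times lower than Bmp2 in level.

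The activin subunits Inhbb (0.969 CPM per kilobase) and Inhba (0.496) were both low, and their order held in 6 of 8 libraries with overlapping ranges. Latent TGF-beta binding proteins were high by comparison, with Ltbp2 at 118, Ltbp1 at 72.3 and Ltbp3 at 39.4 CPM per kilobase, while Ltbp4 was at 0.756. Ltbp2 was at 1056, 969, 565 and 991 CPM in CTR and at 1282, 939, 893 and 1002 CPM in cKO. CTR3 was the lowest library and cKO1 the highest.

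After Fstl1 and Chrdl1, the activin-binding Fst (119 CPM per kilobase) and the BMP antagonist Grem1 (95.3) were next to each other, with overlapping ranges and the same order in 7 of 8 libraries. The BMP antagonists Nog (4.86) and Chrd (0.816) were far below them. Fstl1 was at 3232, 3031, 3493 and 3183 CPM in CTR and at 3765, 2766, 3183 and 2951 CPM in cKO. Both the highest and the lowest value were in cKO.

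Type I receptors were led by a pair that could not be ranked. Acvr1 (19.5 CPM per kilobase) and Bmpr1a (19.2), both receptors for BMPs, changed order between libraries, with Acvr1 higher in 4 of 8. Acvrl1 (13.9), a receptor best known in endothelial cells, and the TGF-beta receptor Tgfbr1 (7.01) came next, and the activin receptor Acvr1b was at 2.68. Acvr1 was at 98.3, 92.8, 103 and 83.9 CPM in CTR and at 114, 87.4, 87.2 and 87.3 CPM in cKO, where cKO1 lay above 3 nearly equal libraries.

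Of the type II receptors, the activin receptor Acvr2a (34.8 CPM per kilobase) was above the TGF-beta receptor Tgfbr2 (26.5) in 7 of 8 libraries, with overlapping ranges. Bmpr2 (3.24) and Acvr2b (2.62) were also neighbors with overlapping ranges. Acvr2a was at 224, 217, 172 and 200.4 CPM in CTR and at 248, 229, 122 and 170.3 CPM in cKO, with cKO3 the lowest. The co-receptor Tgfbr3 (betaglycan) was 10.9 times higher in level than the co-receptor Eng (endoglin), and Bambi, a decoy receptor without a kinase, was at 5.78 CPM per kilobase. Eng and Acvrl1 are also endothelial genes. They were at 65.5 to 95.2 CPM and 36.9 to 84.2 CPM, and the 8 endothelial markers together did not exceed 11.9 CPM in any library. The part of endothelial cells in the Eng and Acvrl1 values was not tested.

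Smad4, the common partner of the receptor-activated Smads, was the highest of that group at 48.2 CPM per kilobase and varied little. It was at 162, 186, 182 and 187 CPM in CTR and at 167, 179, 188 and 180 CPM in cKO. The BMP-responsive Smad1 (12.8) and Smad5 (8.62) were above the TGF-beta-responsive Smad3 (5.05) and Smad2 (3.94) in mean level per kilobase, and Smad9 was at 0.665. Smad3 and Smad2 had overlapping ranges and kept their order in 5 of 8 libraries. The inhibitory Smad6 (36.1) was 3.12 times higher in level than Smad7 (11.6), in 8 of 8 libraries.

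None of these genes passed the threshold between genotypes. With edgeR's quasi-likelihood test and Benjamini-Hochberg adjustment, 0 of 45 genes had an adjusted p-value under 0.05, and so did 0 of the 14598 genes tested (0%). At an unadjusted p-value under 0.05 there were 0 of 45, against 646 of 14598 (4.43%). DESeq2's Wald test, its likelihood ratio test with the title number range, and limma-voom also called 0 of the 45 at an adjusted p-value under 0.05. Of all 14598 genes tested, these tests called 23, 47 and 0. At an unadjusted p-value under 0.05 they held 0, 2 (Tgfb1 and Smad6) and 1 (Smad6) of the 45, against 5.19%, 6.07% and 4.58% of all genes tested. The 4 libraries of each genotype did not separate for any of the 45, against 383 genes of all those tested (2.62%). Because samples are bulk RNA, fewer cells with a transcript and less transcript per cell cannot be told apart.

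The direction was even, with 22 genes of 45 higher and 23 lower in cKO. The median log2 fold change was -0.0048, beside -0.0013 over all genes tested, and the values ranged from -0.82 to 0.48. The median size of the log2 fold change was 0.094 for these genes and 0.14 for all genes tested. For 34 of the 45 (75.6%), the 95% interval of the log2 fold change lay within -1 and 1, and 71.7% of all genes tested had such an interval. The other 11 were Tgfb1, Tgfb2, Inhba, Inhbb, Bmp3, Ltbp4, Nog, Chrd, Smad9, Id1 and Id2, whose wider intervals leave larger differences possible.

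**Figure D2:**
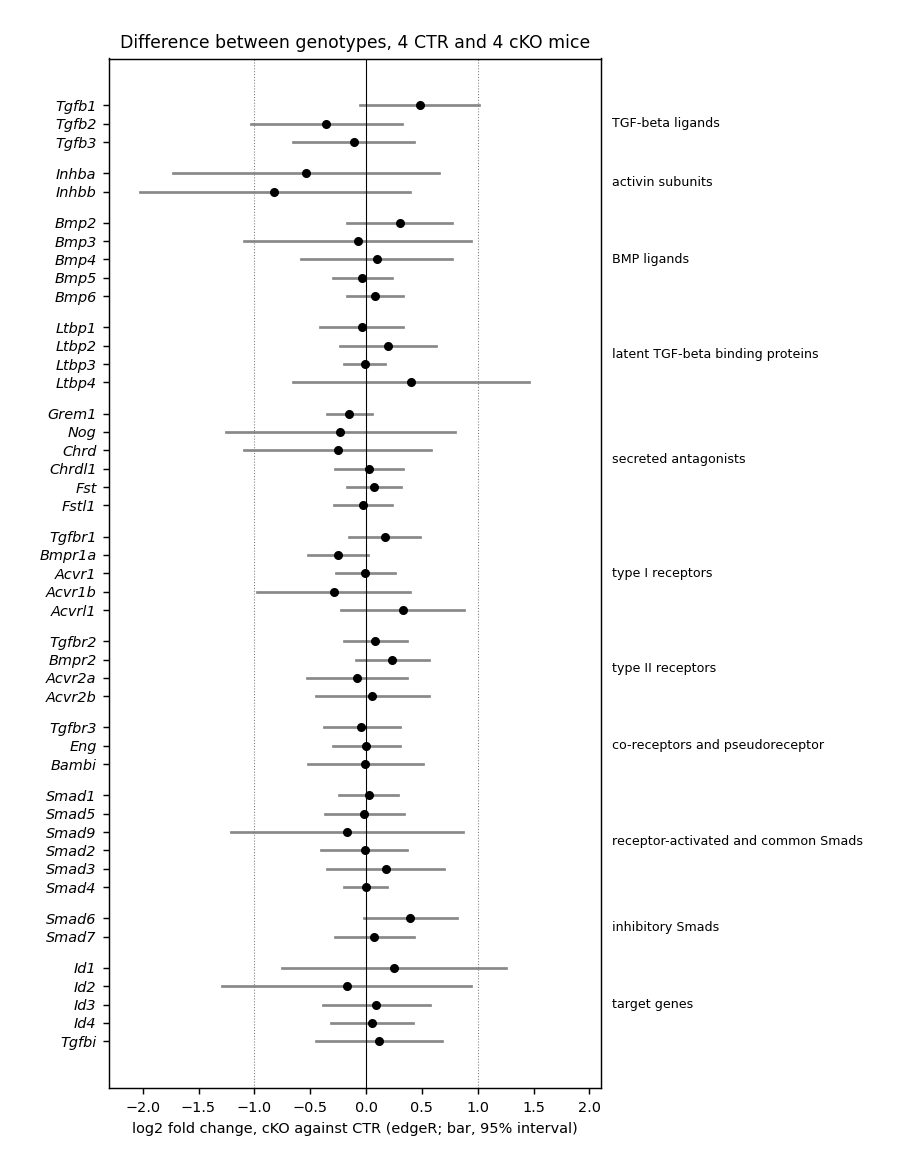
Log2 fold change, cKO against CTR, of the 45 tested genes by role (point, edgeR estimate; bar, 95% interval; dotted lines, -1 and 1). Every bar crosses 0, the values run from -0.82 for Inhbb to 0.48 for Tgfb1, and 34 bars lie between the dotted lines.

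Tgfb1, the ligand most often named in hematopoietic stem cell quiescence, had the highest log2 fold change of the 45 and lies at chr7:25687002-25705077 on the plus strand. It was at 32.3, 32.1, 29.5 and 21.2 CPM in CTR and at 59.5, 33.8, 39.7 and 27.3 CPM in cKO. The groups overlapped, as cKO4 lay below 3 of the CTR libraries and cKO1 stood above all others. Its log2 fold change was 0.48 (standard error 0.24, edgeR adjusted p = 0.999, unadjusted p = 0.0722), and the two-sided exact permutation test gave p = 0.2. Within title numbers 26-32 the difference was 0.22 and within 67-86 it was 0.66 on the log2 scale. Without cKO1 the log2 fold change was 0.22. Markers of blood cells, which also express Tgfb1, were summed beside it: the megakaryocyte markers were at 2.81 to 10.7 CPM in CTR and 2.6 to 5.96 CPM in cKO, and hematopoietic markers at 12.3 to 33.1 and 15.3 to 35.1 CPM. Their part in the Tgfb1 values was not tested.

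Smad6 had the smallest p-value of the 45 in the main edgeR fit. It lies at chr9:63953076-64022059 on the minus strand. It was at 129, 112, 77.3 and 81.4 CPM in CTR and at 150.5, 101, 135 and 139 CPM in cKO. The libraries cKO1, cKO3 and cKO4 lay above every CTR library, and cKO2 lay between CTR libraries. Its log2 fold change was 0.39 (standard error 0.19, edgeR p = 0.0586, adjusted p = 0.999; exact permutation p = 0.143), with 0.31 within 26-32 and 0.51 within 67-86. Its paralog Smad7 was at 64.8, 54.3, 42.7 and 42.7 CPM in CTR and at 63.2, 48.9, 48.1 and 54.5 CPM in cKO, groups that covered each other.

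Bmpr1a, a main type I receptor for BMP2 and BMP4, had a smaller edgeR p-value than any of the 45 but Smad6. It was singled out after its values were seen and lies at chr14:34410734-34503341 on the minus strand. It was at 122, 132, 123 and 154 CPM in CTR and at 101, 130.4, 115 and 100.1 CPM in cKO. Only cKO2 reached into the CTR range. Its log2 fold change was -0.25 (standard error 0.12, edgeR p = 0.0627, adjusted p = 0.999, exact permutation p = 0.0857), with -0.32 within 26-32 and -0.19 within 67-86. Of the 45, only Grem1 had a smaller exact permutation p (0.0571), with a log2 fold change of -0.15 (edgeR p = 0.14) and groups that overlapped.

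The lowest log2 fold change belonged to Inhbb, the activin beta-B subunit, at 6.02, 9.75, 1.61 and 3.67 CPM in CTR and 3.74, 4.5, 1.88 and 1.82 CPM in cKO. CTR2 was the highest library and CTR3 the lowest. The value was -0.82 (standard error 0.54, edgeR adjusted p = 0.999) and became -0.34 without CTR2. Counts of Inhbb ran from 52 to 318 per library.

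In the other roles the groups also overlapped for the gene with the largest log2 fold change in size. Bmp2 was at 36.4, 39.3, 26.6 and 53.7 CPM in CTR and at 40.4, 41.9, 50.7 and 59.3 CPM in cKO (0.30, standard error 0.21). Acvrl1 was at 55.1, 64.3, 50.8 and 40.3 CPM in CTR and at 82.7, 60.2, 84.2 and 36.9 CPM in cKO (0.33, standard error 0.25). The highest Acvrl1 values were in cKO1 and cKO3 and the lowest in cKO4, so that its cKO range enclosed every CTR library. Bmpr2 was at 55.4, 57.4, 51.8 and 49.8 CPM in CTR and at 65.3, 74.2, 45.7 and 67.0 CPM in cKO (0.23, standard error 0.15). For Bmpr2, cKO1, cKO2 and cKO4 were above every CTR library, and cKO3 was below them all. Leaving out 1 library moved these log2 fold changes to between 0.15 (without CTR3) and 0.49 (without CTR4) for Bmp2, 0.19 (without cKO3) and 0.52 (without cKO4) for Acvrl1, and 0.15 (without cKO2) and 0.36 (without cKO3) for Bmpr2.

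Ltbp4 was at 3.53, 2.21, 6.77 and 4.31 CPM in CTR and at 2.36, 5.07, 9.96 and 4.86 CPM in cKO (0.40, standard error 0.47). Chrd was at 7.86, 5.15, 2.92 and 6.29 CPM in CTR and at 7.2, 3.76, 4.21 and 3.49 CPM in cKO (-0.25, standard error 0.37). Groups overlapped for both genes, which are low. Smad3 was at 23.1, 39.7, 19.4 and 22.8 CPM in CTR and at 21.7, 32.9, 33.5 and 30.6 CPM in cKO (0.18, standard error 0.24). The betaglycan gene Tgfbr3 was at 1135, 1534, 1307 and 1415 CPM in CTR and at 1198, 1713, 1221 and 1102 CPM in cKO (-0.043, standard error 0.15). CTR2 and cKO2 had the highest Tgfbr3 of their groups, and CTR2 had the highest Smad3 of all. The log2 fold change of Smad3 lay between 0.054 (without CTR3) and 0.44 (without CTR2), and that of Chrd between -0.55 (without cKO1) and -0.038 (without CTR1).

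The target genes Id1, Id2, Id3 and Id4 encode inhibitors of basic helix-loop-helix transcription factors and are induced by BMPs, and Tgfbi is a matrix protein induced by TGF-beta. Id3 was highest in level at 360.1 CPM per kilobase, then Id4 at 119, with Tgfbi, Id2 and Id1 between 16.5 and 9.83. None of the 5 passed the threshold between genotypes (edgeR, adjusted p = 0.999 for each), and their log2 fold changes ran from -0.17 to 0.25.

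Id1 was at 16.8, 8.83, 10.1 and 6.02 CPM in CTR and at 17.1, 5.13, 7.72 and 19.6 CPM in cKO. Id2 was at 45.6, 23.5, 30.4 and 18.6 CPM in CTR and at 28.8, 10.9, 10.8 and 54.2 CPM in cKO. Id3 was at 860.2, 508, 606 and 527 CPM in CTR and at 801, 473, 566 and 818 CPM in cKO. For Id1, Id2 and Id3, CTR1 was the highest CTR library and cKO4 the highest cKO library, and cKO2 was the lowest cKO library for Id1 and Id3. Id4 was at 377, 446, 354 and 621 CPM in CTR and at 454, 493, 463 and 456 CPM in cKO. Id4 departed from the others in this: CTR4, the lowest CTR library for Id1 and Id2, was the highest for Id4. Tgfbi was at 36.4, 70.9, 69.2 and 61.9 CPM in CTR and at 88.8, 63.2, 40.7 and 66 CPM in cKO, with the highest and the second lowest value both in cKO.

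Log2 fold changes were 0.25 (standard error 0.45) for Id1, -0.17 (0.50) for Id2, 0.088 (0.22) for Id3, 0.055 (0.16) for Id4 and 0.12 (0.25) for Tgfbi. Without cKO4 the values for Id1, Id2 and Id3 were -0.063, -0.81 and -0.027. Immediate early genes, 16 in the list, summed to 1553 to 1643 CPM in CTR and 1136 to 1425 CPM in cKO and did not overlap between genotypes. The sums of the other marker lists overlapped. Of single genes, 2.62% of all those tested did not overlap, a share that does not apply to sums. Abundant genes weigh most in such a sum, here Jund (mean 252 CPM) and Fos (221 CPM, from 88.5 to 385). The part of the immediate early genes in the Id values was not tested.

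**Figure D3:**
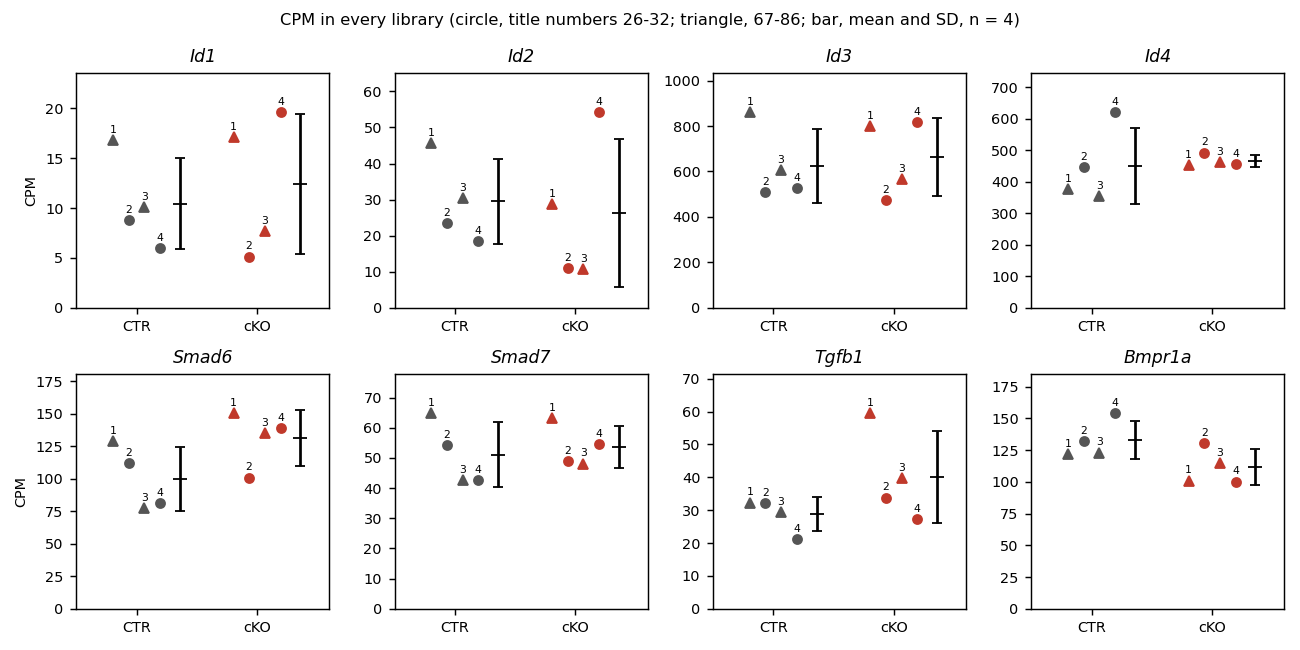
CPM in every library for the target genes Id1 to Id4, the inhibitory Smads, Tgfb1 and Bmpr1a (gray CTR, red cKO; circle title numbers 26-32, triangle 67-86; digits, replicate number; bars, mean and SD, n = 4). For Id1, Id2 and Id3 the library cKO4 is the highest of the cKO group, and CTR and cKO overlap in all 8 panels.

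Spread between mice of a genotype differed widely between members. The SD of log2 CPM within genotype was 0.073 for Ltbp3, 0.084 for Smad4 and 0.094 for Grem1, and it was 0.90 for Inhbb, 0.89 for Id2, 0.84 for Nog, 0.80 for Inhba and 0.78 for Id1. Its median was 0.31 for the 45 genes and 0.30 for all genes tested. Bmp4 (SD 0.55 at a mean of 388 CPM) and Id2 (0.89 at 27.8 CPM) were wide although well above the lowest levels. Bmp4 was at 567, 209.6, 299 and 426 CPM in CTR and at 539, 249, 427 and 387 CPM in cKO. CTR1 and cKO1 were the highest and CTR2 and cKO2 the lowest.

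**Figure D4:**
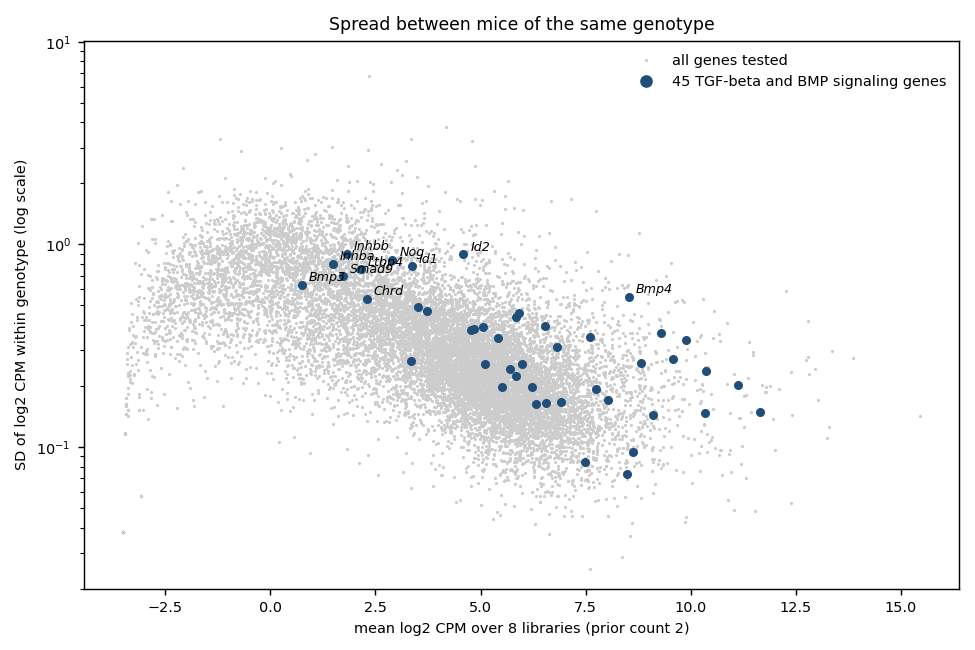
SD of log2 CPM within genotype (log axis) against mean log2 CPM (prior count 2) for all 14598 genes tested (gray) and the 45 pathway genes (blue), with names where the SD exceeds 0.5. Inhbb (0.90) and Id2 (0.89) are highest among the pathway genes.

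Libraries were also compared by title number, 67-86 against 26-32, with genotype as the other term. With edgeR, 0 of the 45 genes passed an adjusted p-value of 0.05, where 2 of 14598 genes did (0.0137%), and DESeq2's Wald test called 380 genes and 0 of the 45. At an unadjusted p-value under 0.05 there were 4 of the 45 (8.89%), against 11.6% of all genes tested. These 4, named after their values were seen, were Tgfb1, Inhba, Ltbp1 and Smad5. Ltbp1, which tethers latent TGF-beta to the matrix, was at 909.8, 927, 960.2 and 719 CPM in CTR2, CTR4, cKO2 and cKO4 and at 666, 630.4, 639.5 and 729 CPM in CTR1, CTR3, cKO1 and cKO3. These ranges touched at cKO3 and cKO4 only. The log2 fold change was -0.40 (standard error 0.11, edgeR adjusted p = 0.24). Tgfb1 was higher by 0.46 in 67-86, and Inhba (-1.07) and Smad5 (-0.30) were lower, each with an adjusted p-value of 0.42 or above. The interaction of genotype and title number called 0 of the 45 (edgeR, smallest adjusted p = 1.0), with 1 (2.22%), Smad9, at an unadjusted p-value under 0.05, against 3.44% of all genes tested.

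A further list of 82 pathway genes, chosen with earlier results of these data known, covered other ligands, receptors, secreted and intracellular regulators and targets. Of these, 80 were found and 51 were tested, with 18 higher and 33 lower in cKO, and 0 passed an adjusted p-value of 0.05 in edgeR. The median log2 fold change was -0.066, beside -0.0013 over all genes tested. An unadjusted p-value under 0.05 was reached by 2 of 51, against 4.43% of all genes. Ppm1a, a phosphatase that acts on phosphorylated Smad2 and Smad3, was at 55.9, 60.8, 60.8 and 57.0 CPM in CTR and at 56.0, 35.7, 34.4 and 27.3 CPM in cKO. The library cKO1 lay with the CTR libraries and the other cKO libraries were lower, for a log2 fold change of -0.61 (standard error 0.19, edgeR adjusted p = 0.999). Dcn, decorin, a matrix proteoglycan that binds TGF-beta, was at 369.9, 431, 309.9 and 405 CPM in CTR and at 260.3, 328, 242 and 364 CPM in cKO. Its log2 fold change was -0.34 (standard error 0.15, edgeR adjusted p = 0.999), with groups that overlapped.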

How the data were processed

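Bulk RNA-seq was available for MSPCs of 4 CTR and 4 cKO mice. According to the methods, the authors aligned reads to GRCm38 with HISAT2, counted them per gene with HTSeq-count and deposited the raw counts, without normalization. Of 52636 identifiers, 52403 were matched to a symbol. Exon lengths and coordinates (GRCm38) come from GENCODE M21, not from the annotation release that the methods cite.

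Counts were scaled by TMM. The 14598 genes counted at least once in each library entered edgeR 4.0.16 (glmQLFit, glmQLFTest; R 4.3.3), fitted to all 8 libraries with genotype as the only term. P-values were adjusted by Benjamini-Hochberg over all genes tested, with a threshold of 0.05. The study set a count above 0 in all samples as a criterion for the genes it reported, and here it was applied before testing. The methods name a likelihood ratio test with a batch correction, without saying what the batch is. The exact permutation tests were two-sided over 70 assignments of log2 CPM (prior count 2) to groups of 4, and their smallest possible p is 0.0286. Motifs were searched on both strands of the RefSeq windows. Simulated data were used only for edgeR, DESeq2's Wald test and voom with genotype and title number range as terms. The main genotype fit, without the title number term, was not run on them. Total counts of 31047344 to 38216877 set the precision, together with 4 mice per genotype.

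The members and all lists were chosen with earlier results of these data known. By the rule for named genes, values in every library are given for members past 0.05, for the highest level and the largest log2 fold change in size of each role, for the target genes and for Tgfb1, and for other pathway genes with an unadjusted p under 0.05. Smad7, Bmp4, Bmpr1a, Ltbp1 and Bgn were added after their values were seen. Alternatives were other scalings and filters, DESeq2 1.42.0, voom from limma 3.58.1, the title number range, the replicate number as a block and each library left out. The main fit did not pair samples by replicate number, and whether these numbers mark pairs could not be settled.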

Additional observations from a re-analysis of the deposited data

Results flagged for a closer look

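In 4 of the 90 groups of 4 libraries examined, a library lay far from the other 3 (gap to the nearest library divided by the range of the group, above Dixon's 95% critical value), and chance gives about 1 in 20 groups, or 4.5. Tgfb3 was at 162 CPM in CTR3 against 75.5 to 82.3 CPM in the other CTR libraries (0.921), and Ltbp3 was at 325 CPM in cKO4 against 363 to 368 CPM in the other cKO libraries (0.885). Nog was at 2.31 CPM in cKO3 against 9.24 to 9.52 CPM (0.961), and Acvr1 was at 114 CPM in cKO1 against 87.2 to 87.4 CPM (0.991).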

How the results depend on the processing

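The count of members called between genotypes was 0 under all 17 alternative settings, and so was the count by title number under the alternatives run for it. The count of all genes called was 0 with the main setting, and it was 1 without the filter on counts, 1 with edgeR's filterByExpr, 23 with DESeq2's Wald test and 47 with its likelihood ratio test and the title number range. The causes were not tested. The median log2 fold change of the members stayed between -0.017 and 0.049. Of 16 members followed one by one, 9 kept their direction in every setting, with log2 fold changes on leaving out 1 library from 0.22 to 0.62 for Tgfb1, -1.12 to -0.34 for Inhbb, -0.34 to -0.18 for Bmpr1a and 0.29 to 0.54 for Smad6, and as given above for Bmp2, Acvrl1, Bmpr2, Smad3 and Chrd. Leaving out 1 library turned the direction of the others, with log2 fold changes from -0.063 to 0.58 for Id1, -0.81 to 0.12 for Id2, -0.027 to 0.28 for Id3, -0.049 to 0.25 for Id4, -0.035 to 0.73 for Ltbp4, -0.077 to 0.29 for Tgfbi and -0.20 to 0.031 for Tgfbr3. With 1 library left out, 0 to 4 of the 45 tested members had an unadjusted p under 0.05 (the highest, 8.89%, without cKO4), against 3.75% to 4.94% of all genes. None of the 16 passed the threshold in any setting.

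Whether the replicate numbers shared by the genotypes mark pairs of samples could not be settled from the correlations. Same-numbered libraries correlated at 0.131, 0.176, 0.084 and 0.057 for replicates 1 to 4. Each cKO library correlated best with the CTR library of its number, whereas CTR4 correlated best with cKO2 (0.128). Differently numbered libraries of the same title range came close, as CTR3 with cKO1 (0.082) and CTR2 with cKO4 (0.047). With the replicate number as a block, 0 members and 0 genes were called, with 812 genes (5.56%) at an unadjusted p under 0.05 against 646 without it, among them 1 member, Tgfb1 (2.22%). Inhba, Inhbb, Bmp3, Ltbp4, Nog, Chrd and Smad9 had fewer than 100 counts in at least 1 library. The part of depth in the spread between mice was not tested.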
